A study of Homo sapiens with 6 samples.

Results

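Matrix proteases, cathepsins, kallikreins, plasminogen activators and their serpin and TIMP inhibitors were located on 2 deposited gene lists from SiHa cells, which the submitters named for high and for low expression. Members were the listed symbols beginning with MMP, ADAM, ADAMTS, TIMP, CTS, PLAU, SERPIN, KLK, TMPRSS or PRSS, followed as a family name requires, or equal to PLAT. They numbered 91 of 8942 genes standing on 1 of the lists, 25 of them on the high list and the other 66 low, a high share of 27.5% against 50.6% of all 8942. RefSeq calls 88 of them protein coding, and the other 3 are the antisense transcripts ADAMTS9-AS1 and ADAMTS9-AS2 and the pseudogene TMPRSS11BNL.

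SiHa is an established human line from a squamous cell carcinoma of the cervix and carries human papillomavirus. The series title links migratory cells of cervical cancer to chromatin with little SUV39H1, an enzyme that methylates lysine on histone H3. Cells were placed in transwell plates of 6 wells and the fractions were collected after 10 hours, with 3 libraries of migrated and 3 of non-migrated cells, numbered as paired sets. No genotype or drug distinguished the fractions, and the labels do not say whether the numbered sets were separate cultures.

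The lists hold a symbol, a strand and an hg19 position for each gene, and their value column is empty. How genes were selected, and from which libraries, is not stated in the labels or files used here. The lists were read, from their names alone, as describing expression level and not a difference between migrated and non-migrated cells. That reading could not be checked. The expression table of the 6 libraries names its 26006 loci by assembly numbers that the files used here do not pair with gene symbols. No member therefore has an expression value or a fold change between fractions, no test across libraries could be made, and every count below is a description of the lists. A level in bulk RNA cannot tell fewer expressing cells from less RNA per cell. Depth was 23166447 to 25662866 assigned fragments in migrated and 18226280 to 33466924 in non-migrated libraries, with at least 1 fragment at 16137 to 16316 and at 16262 to 16920 loci. Of 12 squamous and simple epithelial markers, KRT17, KRT8, KRT18 and DSP were on the high list, KRT5 stood on the low list, and the other 7, among them TP63, EPCAM and CDH1, were on neither. None of 6 leukocyte and 5 fibroblast markers was a high-list gene, while PTPRC, CD3D, CD2 and COL1A2 were on the low list.

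Matrix metalloproteases (MMP), the membrane-anchored ADAM sheddases and the secreted ADAMTS enzymes cut matrix proteins and cell surface proteins with a catalytic zinc ion, and TIMP proteins block them. Cathepsins (CTS) are mostly lysosomal enzymes of protein turnover, while kallikreins (KLK), TMPRSS and PRSS enzymes are trypsin-like serine proteases of glands, epithelia and the gut. Most serpins trap serine proteases in an irreversible complex, and urokinase (PLAU) and its receptor (PLAUR) control plasmin formation at the surface of moving cells.

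The promoters of a few members show a sequence feature in which the lists differed, the density of CG dinucleotides. Each stretch below is the 150 bases before the most upstream RefSeq start in GRCh38.p14, written 5′ to 3′ on the strand of the gene, with CG in capitals. The first 6 are high-list genes: the lysosomal proteases CTSD (chr11:1763928-1764077, minus strand) and CTSH (chr15:78945047-78945196, minus), the sheddase ADAM10 (chr15:58749708-58749857, minus), the membrane-type metalloprotease MMP14 (chr14:22836435-22836584, plus) and the metalloprotease inhibitors TIMP3 (chr22:32801555-32801704, plus) and TIMP1 (chrX:47582286-47582435, plus). The last 4 are pairs of neighbouring genes that stood on opposite lists, the serine proteases PRSS21 on the high list (chr16:2817087-2817236, plus) and PRSS33 on the low list (chr16:2787916-2788065, minus), and the serpins SERPINB5 on the high list (chr18:63476808-63476957, plus) and SERPINB12 on the low list (chr18:63542219-63542368, plus).
CTSD: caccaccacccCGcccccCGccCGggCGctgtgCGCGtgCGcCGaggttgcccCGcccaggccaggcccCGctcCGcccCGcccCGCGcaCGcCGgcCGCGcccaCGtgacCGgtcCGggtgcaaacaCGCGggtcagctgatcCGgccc
CTSH: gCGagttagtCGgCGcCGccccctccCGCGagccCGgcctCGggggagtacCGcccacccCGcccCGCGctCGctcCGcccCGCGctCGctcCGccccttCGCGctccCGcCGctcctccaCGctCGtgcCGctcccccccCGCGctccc
ADAM10: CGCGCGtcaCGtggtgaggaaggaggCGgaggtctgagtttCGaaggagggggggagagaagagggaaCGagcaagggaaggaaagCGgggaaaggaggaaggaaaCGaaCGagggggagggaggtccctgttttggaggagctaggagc
MMP14: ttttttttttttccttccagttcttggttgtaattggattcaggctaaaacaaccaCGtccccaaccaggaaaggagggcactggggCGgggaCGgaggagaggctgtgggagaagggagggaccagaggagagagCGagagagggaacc
TIMP3: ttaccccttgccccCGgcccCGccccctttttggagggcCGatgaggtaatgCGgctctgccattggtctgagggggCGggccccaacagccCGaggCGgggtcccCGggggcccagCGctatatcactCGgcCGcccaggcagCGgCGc
TIMP1: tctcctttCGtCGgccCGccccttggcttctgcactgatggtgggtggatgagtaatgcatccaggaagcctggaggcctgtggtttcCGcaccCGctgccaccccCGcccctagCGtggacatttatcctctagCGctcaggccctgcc
PRSS21: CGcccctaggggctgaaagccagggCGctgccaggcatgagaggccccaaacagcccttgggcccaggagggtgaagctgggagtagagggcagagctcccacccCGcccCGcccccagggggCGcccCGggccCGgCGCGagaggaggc
PRSS33: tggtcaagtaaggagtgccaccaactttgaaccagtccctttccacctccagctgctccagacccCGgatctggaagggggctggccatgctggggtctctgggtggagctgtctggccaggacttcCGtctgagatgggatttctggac
SERPINB5: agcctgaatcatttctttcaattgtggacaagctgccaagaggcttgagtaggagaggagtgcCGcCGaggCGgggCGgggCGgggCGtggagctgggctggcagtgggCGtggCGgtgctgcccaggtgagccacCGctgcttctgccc
SERPINB12: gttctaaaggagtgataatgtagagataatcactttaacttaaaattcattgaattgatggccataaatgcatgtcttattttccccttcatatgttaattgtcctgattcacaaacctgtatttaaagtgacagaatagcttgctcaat
In these stretches CTSD and CTSH held 24 and 27 CG dinucleotides and TIMP3 held 13, while MMP14 held 4 and TIMP1 held 8. PRSS21 held 9 against 2 in PRSS33, and SERPINB5 held 9 against 0 in SERPINB12.

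Proteases and inhibitors as a whole stood more often on the low list than listed genes did in general. Of protein coding members 28.4% were on the high list, against 54.1% of all listed protein coding genes. The symbol rule finds 178 protein coding genes in RefSeq. Of these 14.0% were on the high list, 35.4% on the low list and 50.6% on neither, against 22.3%, 18.8% and 58.9% of all RefSeq protein coding genes. A gene on neither list may have had an intermediate level or may have been missing from the annotation behind the lists, and these were not told apart.

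The families were far from alike. Of the listed genes, cathepsins and TIMPs stood mostly on the high list. Kallikreins and TMPRSS enzymes were found there in no case, and the metalloprotease and serpin families were divided.

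**Figure D1:**
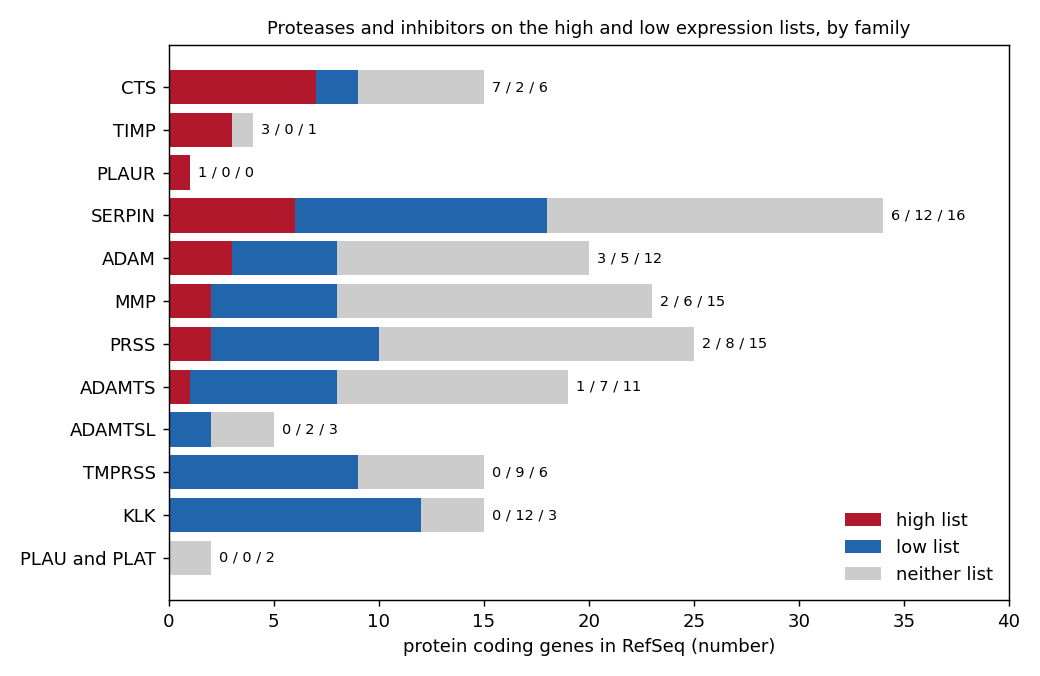
Number of RefSeq protein coding genes of each family (x axis) on the high list (red), the low list (blue) or neither (grey), with the 3 counts printed at the end of each bar in that order. Cathepsins (CTS) had 7 of 15 genes on the high list, while kallikreins (KLK) had 0 of 15 there and 12 on the low list.

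Among the proteases, the cathepsins had the most high-list genes, 7 of 9 listed (77.8%), against 54.1% of all listed protein coding genes. Of 15 RefSeq cathepsin genes 46.7% were high, against 22.3% of all RefSeq protein coding genes. On hg19 they were the carboxypeptidases CTSA (chromosome 20, 44519591 to 44527459) and CTSZ (chromosome 20, 57570240 to 57582302), the dipeptidyl peptidase CTSC (chromosome 11, 88026773 to 88070955), the aspartic protease CTSD (chromosome 11, 1773982 to 1785222) and the aminopeptidase CTSH (chromosome 15, 79213400 to 79241916). The cysteine proteases CTSB (chromosome 8, 11700033 to 11726957) and CTSL1, now named CTSL (chromosome 9, 90340434 to 90346307), completed the group. These 7 enzymes are lysosomal and are made in many tissues. The low list held CTSE, an aspartic protease of stomach and immune cells, and CTSG, a serine protease of neutrophil granules. CTSK, the main collagen-degrading enzyme of osteoclasts, was on neither list, and nor were CTSF, CTSO, CTSS, CTSV and CTSW.

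The MMP, ADAM and ADAMTS families had 6 high-list genes of 24 listed protein coding members (25.0%), against 54.1% of all listed protein coding genes. Members were counted by family name, and ADAM members without a zinc-binding motif were not left out. The high-list MMPs were MMP14 (chromosome 14, 23305766 to 23316970) and MMP15 (chromosome 16, 58059470 to 58080805), which are both held in the plasma membrane by a transmembrane segment. The third listed membrane-type enzyme, MMP16, was on the low list. The secreted enzymes on the low list were the neutrophil collagenase MMP8, the macrophage elastase MMP12, the enamel protease MMP20, and MMP26 and MMP27. No secreted MMP was on the high list. MMP2 and MMP9, the gelatinases, and MMP1, MMP3, MMP7, MMP10 and MMP13 were on neither list, as were 8 further MMP genes.

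Of 20 ADAM genes, 3 were high (15.0%), 5 were low (25.0%) and 12 were on neither list (60.0%). All RefSeq protein coding genes gave 22.3%, 18.8% and 58.9%, so the family as a whole was not far from the background. ADAM10 (chromosome 15, 58887403 to 59042177), which sheds Notch receptors and cadherins, ADAM15 (chromosome 1, 155023762 to 155035252) and ADAM9 (chromosome 8, 38854388 to 38962520) were on the high list. ADAM2 and ADAM18 of sperm, ADAM7 of the epididymis, and ADAM29 and ADAM30 of the testis were on the low list. ADAM17, which sheds tumour necrosis factor and EGF receptor ligands, was on neither list with 11 others, among them ADAM20, ADAM21 and ADAM32.

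ADAMTS1 (chromosome 21, 28208606 to 28217728), a secreted protease of the proteoglycans versican and aggrecan, was the single ADAMTS gene on the high list. Of 8 listed protein coding ADAMTS genes 12.5% were high, against 54.1% of all listed protein coding genes. Of 19 RefSeq ADAMTS genes 5.26% were high and 36.8% low, against 22.3% and 18.8% of all RefSeq protein coding genes. The low list held 7, namely the aggrecanase ADAMTS5, the procollagen peptidase ADAMTS3, and ADAMTS9, ADAMTS12, ADAMTS18, ADAMTS19 and ADAMTS20. It also held ADAMTSL1 and ADAMTSL2, which are secreted glycoproteins related to ADAMTS enzymes but with no protease domain. The low-list ADAMTS genes were long, with spans of 48.6 to 369 kb and a median of 198 kb, against 9.12 kb for ADAMTS1. The median span of all low-list members was 22.6 kb, against 10.9 kb for all genes of the low list. High-list members had a median span of 21.3 kb, against 33.2 kb for all genes of the high list.

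Serine proteases of the KLK, TMPRSS and PRSS families gave 2 high-list genes and 29 low-list genes. The high share was 6.45%, against 54.1% of all listed protein coding genes. The 2 were PRSS23 (chromosome 11, 86502101 to 86663886), a secreted protease, and PRSS21 (chromosome 16, 2867164 to 2871720), a lipid-anchored protease best known from the testis and also called testisin. The other listed PRSS genes were the pancreatic trypsinogen PRSS1, and PRSS33, PRSS37, PRSS38, PRSS48, PRSS55, PRSS57 and PRSS58, on the low list. Low-list TMPRSS genes were the intestinal activator of trypsinogen TMPRSS15, the membrane-anchored enzymes TMPRSS4, TMPRSS7 and TMPRSS13, and 5 TMPRSS11 genes with their pseudogene TMPRSS11BNL. All 12 listed kallikreins were on the low list, among them the prostate enzymes KLK2 and KLK3 (prostate-specific antigen), the tissue kallikrein KLK1, and KLK6, KLK7, KLK8, KLK11 and KLK13 of stratified epithelia, with KLK4, KLK9, KLK12 and KLK15. KLK5, which acts with KLK7 in shedding of the outer skin layer, was on neither list with KLK10 and KLK14.

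In the plasminogen system the urokinase receptor and not the activators stood on the high list. PLAUR (chromosome 19, 44150271 to 44174502), the urokinase receptor, was a high-list gene. PLAU and PLAT, the activators themselves, were on neither. The substrate plasminogen (PLG) was on the low list, while the plasminogen-binding proteins ANXA2, S100A10 and ENO1 were on the high list. Promoter windows of 300 bases were available for 20 high-list and 52 low-list members and were searched on both strands. Among these members PLAUR alone held TGACTCA or TGAGTCA, the consensus site of the transcription factor AP-1. Of genes under the symbol rule on neither list, 4 of 56 with a window (7.14%) held it too. Such a site was present in 4.95% of all 35116 RefSeq promoter windows, and in 5.26% of RefSeq protein coding genes with a promoter. It is shown in capitals in the 200 bases before the PLAUR start (GRCh38.p14 chr19:43670170-43670369, minus strand), and whether AP-1 binds there was not measured.
PLAUR: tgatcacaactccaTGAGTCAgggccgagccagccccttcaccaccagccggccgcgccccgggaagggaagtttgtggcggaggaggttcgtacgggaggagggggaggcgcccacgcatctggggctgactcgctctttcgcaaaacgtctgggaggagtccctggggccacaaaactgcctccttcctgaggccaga

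A larger share of inhibitors than of proteases stood on the high list, at 9 of 21 listed genes (42.9%) against 15 of 64 (23.4%). Both were below the 54.1% of all listed protein coding genes. The 21 were counted by family and include serpins not known to inhibit. With those left out, 7 of 17 (41.2%) were high. Of all RefSeq genes of each role, 23.7% of inhibitors and 11.2% of proteases were high, against 22.3% of all RefSeq protein coding genes, so inhibitors stood below the background among listed genes and near it among all genes. The exact 95% binomial intervals, 21.8 to 66.0% for inhibitors and 13.8 to 35.7% for proteases, overlapped, they treat genes as independent draws, and no test of the difference was made. The interval for inhibitors includes the 54.1% of all listed protein coding genes, so their lower share is not resolved from it. TIMP1 (chromosome X, 47441712 to 47446188), TIMP2 (chromosome 17, 76849059 to 76921469) and TIMP3 (chromosome 22, 33197687 to 33259030) were all on the high list, and TIMP4 was on neither. TIMP2 also acts with MMP14 in the activation of MMP2, and of these 3 genes only MMP2 was not on the high list.

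Serpins are given by clade, the letter of the symbol that marks their evolutionary group. In clade B, the intracellular serpins, 23.1% of 13 RefSeq genes were high, near the 22.3% of all RefSeq protein coding genes. The clade gave SERPINB1 (chromosome 6, 2832566 to 2842240), an inhibitor of neutrophil elastase, SERPINB6 (chromosome 6, 2948393 to 2972399) and SERPINB5, also called maspin (chromosome 18, 61143994 to 61172318), on the high list, with SERPINB12 on the low list and 9 others on neither. SERPINB3 and SERPINB4, the squamous cell carcinoma antigens, were among the 9. The thrombin and urokinase inhibitor SERPINE2 (chromosome 2, 224839829 to 224904036) was on the high list, and SERPINE3 was on neither. SERPINH1 (chromosome 11, 75273101 to 75283828), a collagen chaperone that does not inhibit proteases, was also on the high list.

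Clade A, the plasma serpins made mainly in liver, had 9 of 10 genes on the low list and 0 on the high list, where 18.8% of all RefSeq protein coding genes were low. The low-list genes were antichymotrypsin SERPINA3, kallistatin SERPINA4, the protein C inhibitor SERPINA5, the hormone carriers SERPINA6 and SERPINA7, and SERPINA9, SERPINA10, SERPINA11 and SERPINA12. SERPINA1, which encodes antitrypsin, was on neither list. The low list also held SERPIND1, a plasma inhibitor of thrombin, and SERPINI2.

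Of the 66 low-list members, 33 lay in gene clusters. A cluster was taken as at least 3 listed members on 1 chromosome, each starting within 500 kb of the next on hg19. There were 5 clusters with 33 members in all, every one of them low. The share of all low-list genes that lie in clusters was not computed. Outside the clusters 25 members were high and 33 low, a high share of 43.1%. Proteases outside clusters gave 15 high and 27 low (35.7% high) and inhibitors 9 high and 4 low (69.2% high). Every clustered member was low, so leaving clusters out could only raise both shares. No conclusion on the order of the roles is drawn from it.

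The kallikrein cluster on chromosome 19 (51322404 to 51568367, 246.0 kb) was the largest, with 12 low-list genes, 10 of them on the minus strand. No other listed gene lay between its ends, and KLK5 and KLK10 lie within it by RefSeq order. The clade A serpin cluster on chromosome 14 (94749650 to 95090983, 341.3 kb) held 8 low-list genes with SERPINA1 among them by RefSeq order. The TMPRSS11 cluster on chromosome 4 (68686594 to 69363322, 676.7 kb) held 6 low-list members. It also enclosed YTHDC1, a reader of methylated RNA, which was on the high list and lay between TMPRSS11B and TMPRSS11E. The MMP cluster on chromosome 11 (102447566 to 102745764, 298.2 kb) held MMP20, MMP27, MMP8 and MMP12 on the low list, with MMP1, MMP3 and MMP10, which lie between them by RefSeq order, on neither list. The nearest listed genes on both sides of that cluster, TMEM123 at 123.8 kb and DCUN1D5 at 187.0 kb, were on the high list. The last cluster was the single protein coding gene ADAMTS9 with its 2 antisense transcripts on chromosome 3 (64501489 to 64997143). ADAMTS9 overlaps ADAMTS9-AS1 and the start of ADAMTS9-AS2 on the other strand. On the same strand, KLK8 overlaps KLK9 as SERPINA4, SERPINA5 and SERPINA3 overlap in turn. Whether counting used strand is not stated in the labels or files, so reads of ADAMTS9 and its antisense transcripts could not be told apart. Strand cannot separate reads of genes that overlap on the same strand.

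**Figure D2:**
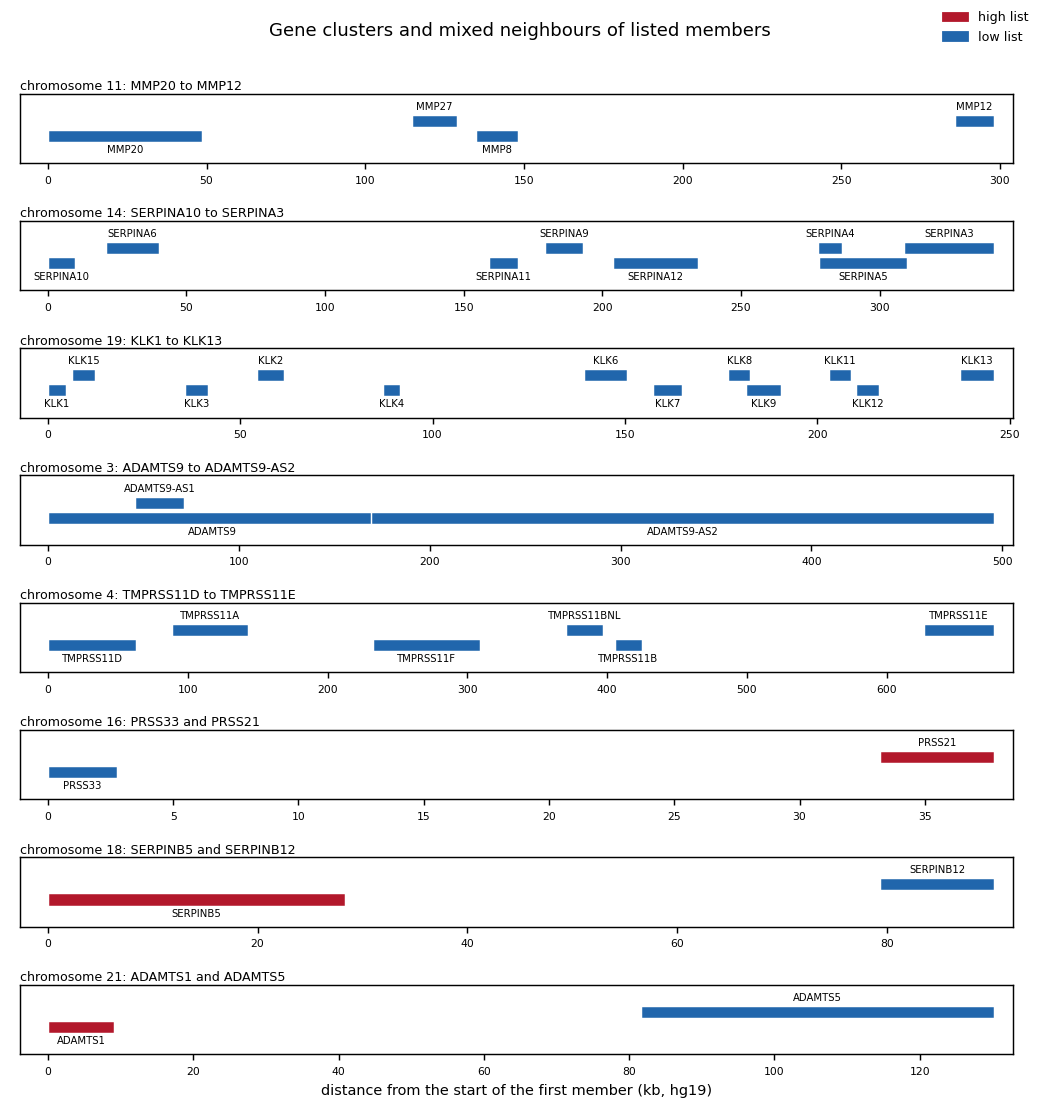
Listed members of the 5 clusters (upper 5 panels) and of the 3 neighbouring pairs on opposite lists (lower 3 panels), drawn to scale as bars from gene start to gene end against the distance from the start of the first member (kb, hg19), with high-list genes red and low-list genes blue. Height only keeps neighbours apart and genes that are not members, such as YTHDC1, are not drawn. Every bar in the 5 clusters is on the low list, while each pair holds 1 gene of each list.

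Neighbouring members seldom stood on opposite lists. Of 35 neighbouring pairs of members within 500 kb, 32 were on the same list, or 91.4%. Among all listed genes the share was 73.6% of 7371 neighbouring pairs. These shares are not like for like. Pairs of members pass over listed genes that are not members, as TMPRSS11B and TMPRSS11E pass over YTHDC1. Members were also mostly low, with 27.5% high against 50.6% of all listed genes, which by itself raises the share of same-list pairs. SERPINB1 and SERPINB6 on chromosome 6 were the single neighbouring pair in which both were high. The 3 mixed pairs were PRSS33 and PRSS21, 30.5 kb apart on chromosome 16, SERPINB5 and SERPINB12, 51.1 kb apart on chromosome 18, and ADAMTS1 and ADAMTS5, 72.5 kb apart on chromosome 21. Tandem copies share sequence and ancestry, so these pairs are not independent of each other. Near-identical copies such as PRSS1 and PRSS2 can also share reads, and PRSS2 was on neither list.

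Promoter sequence, which the symbol rule did not use, differed between the lists among members as it did among other genes. The measure was the number of CG dinucleotides over the number expected from the C and G content, in the 300 bases from 250 before to 50 after each RefSeq start, averaged over the starts of a gene. It was available for 20 high-list and 52 low-list members. High-list members had a median of 0.814 (range 0.442 to 1.03), against 0.210 (range 0 to 0.921) in low-list members. All other high-list genes had a median of 0.863 and all other low-list genes one of 0.298, both above the members of the same list. The ranges of high-list and low-list members overlapped.

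A ratio of at least 0.6, a usual limit for CpG islands, was met by 14 of 20 high-list members (70.0%) and by 7 of 52 low-list members (13.5%), against 89.3% and 25.1% of other genes of the same lists. The 6 high-list cathepsins with a promoter all met it, at 0.761 for CTSL1 to 1.03 for CTSC. The 6 high-list members below it were MMP14 at 0.442, PRSS23 at 0.483, PRSS21 at 0.497, TIMP1 at 0.518, SERPINE2 at 0.576 and PLAUR at 0.591. PRSS23 and SERPINE2 each had a pair of starts that differed, with 0.112 and 0.855 for PRSS23 and 0.390 and 0.762 for SERPINE2.

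The low-list members with CpG-rich promoters were nearly all of the ADAMTS group. They were ADAMTS3 at 0.921, ADAMTS18 at 0.778, ADAMTS20 at 0.769, ADAMTS12 at 0.728, ADAMTS19 at 0.718 and ADAMTSL2 at 0.695, with ADAM30 at 0.885. Every other low-list member with a promoter was below 0.6, with a highest value of 0.532 for KLK13 among kallikreins, 0.511 for PRSS57 among PRSS genes, 0.301 for SERPINA5 among serpins, 0.257 for TMPRSS11B among TMPRSS genes and 0.245 for MMP27 among MMPs. The kallikreins had low CG ratios at a high G and C content, with medians of 0.215 and 61.3%, whereas TMPRSS promoters were AT-rich, with medians of 0.139 and 37.0%.

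**Figure D3:**
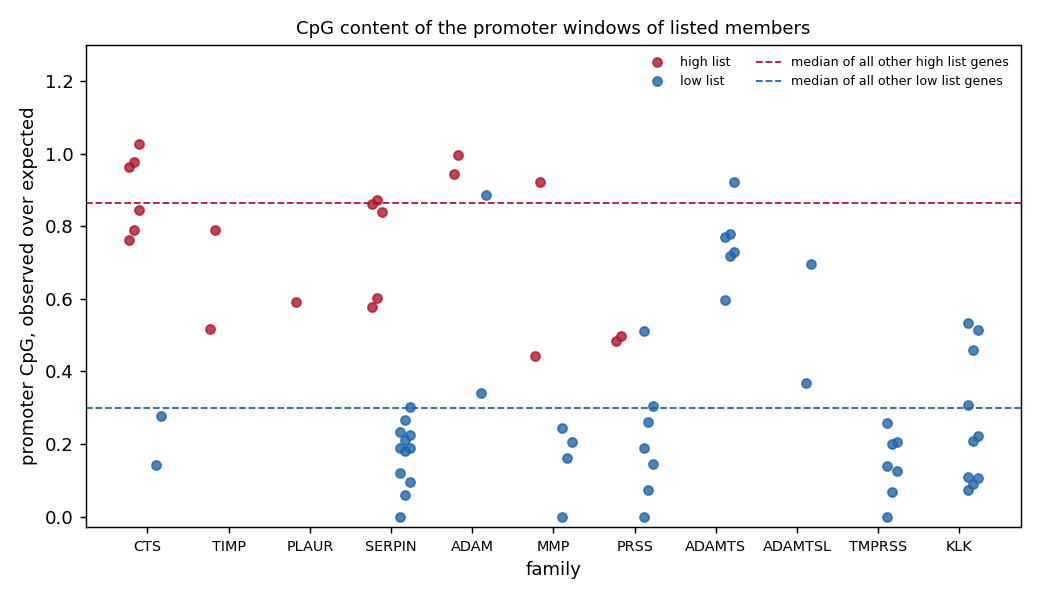
Observed over expected CG dinucleotides in the promoter of each listed member (y axis), by family (x axis), for the high list (red, left) and the low list (blue, right), 1 point per gene. Dashed lines are the medians of all other genes of the high list (0.863) and the low list (0.298). The ADAMTS points of the low list lie at 0.597 to 0.921, above the points of the other large low-list families.

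Letters of known promoter elements followed the same division. GGGCGG itself holds a CG dinucleotide and TATAAA only A and T. These counts are therefore not a separate result from the CG ratio and the G and C content. A gene was counted if any of its starts held the letters. The TATA box, searched as TATAAA on both strands, was present in 1 of 20 high-list members (5.0%) and 15 of 52 low-list members (28.8%). Other genes of the same lists gave 8.0% and 22.5%. All RefSeq protein coding genes with a promoter gave 12.4%, and single RefSeq windows 11.5%. The GC box, searched as GGGCGG on both strands, was present in 19 of 20 high-list members, the exception being PLAUR, and in 16 of 52 low-list members (30.8%). Other genes of the same lists gave 81.1% and 32.7%. All RefSeq protein coding genes with a promoter gave 64.3%, and single RefSeq windows 45.0%. None of the 3 motifs searched contains another. Of the 16 low-list genes with a GC box, 7 were kallikreins and 5 were ADAMTS genes.

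Other genes of proteolysis were placed on the lists in 8 groups, to be read against the 22.3% high and 18.8% low of all RefSeq protein coding genes. No group was tested. PLAUR, a member already counted above, is also in the plasminogen group, and CD44, LRP1 and PLG are each in a pair of groups. Genes of lysosomal delivery, with some lysosomal proteins and their transcription factors, gave 15 high and 0 low of 20 (75.0% high). They included both mannose phosphate receptors, M6PR and IGF2R, the enzyme subunits GNPTAB and GNPTG that make the mannose phosphate tag, and the membrane proteins LAMP1 and LAMP2. Legumain (LGMN), which processes cathepsins, was also on the high list. The cystatin superfamily gave 2 high and 13 low of 17 (11.8% high). Its 2 high genes were the cysteine cathepsin inhibitors CST3 and CSTB. Most cystatins were low, namely CST1, CST2, CST4, CST5, CST6, CST8, CST9, CST9L and CST11. The plasma proteins AHSG, FETUB, HRG and KNG1 of the same superfamily were low too. CST7 and CSTA were on neither list.

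Regulators of metalloproteases gave 7 of 12 high (58.3%) and 0 low. Basigin (BSG), which induces MMP expression, the MMP14 partner CD44 and the endocytic receptor LRP1 were among the 7, while RECK, a membrane inhibitor of MMPs, was on neither list. Substrates and partners of ADAM10 and ADAM17 gave 8 of 22 high (36.4%), including NOTCH1, NOTCH2, APP, L1CAM and EREG, and 1 low, TNF. Convertases and other surface or secreted proteases, with the coagulation cofactor F3, gave 8 high, F3 included, and 7 low of 32. The 25.0% high lay near the background. FURIN and PCSK7, which activate membrane-type MMPs and ADAMs, BMP1, which trims procollagens, and HTRA1 were high, while the hepatocyte protease HPN, DPP4, MME and MEP1A were low. ST14, the epithelial protease matriptase, was on neither list, and its inhibitor SPINT2 was on the high list with SLPI, TFPI, SPINK6 and SPOCK1. Inhibitors of the WAP, Kunitz and Kazal types gave 5 high and 8 low of 26 (19.2% high, near the background), and TFPI2 was low. Calpains, caspases, legumain and aspartic proteases gave 11 high and 10 low of 36 (30.6% high). Calpains were divided. CAPN1, CAPN2, CAPN7, CAPN15 and the small subunit CAPNS1 were high, with the inhibitor CAST. CAPN6, CAPN8, CAPN9, CAPN11 and CAPN13 were low, and CAPN3, CAPN5, CAPN10, CAPN12 and CAPN14 were on neither list. The pepsinogens PGA3, PGA4, PGA5 and PGC were low. Protease-activated receptors and the plasminogen system gave 6 high, PLAUR included, and 3 low of 12. F2RL2 and F2RL3 were among the low genes, and F2R and F2RL1, which respond to thrombin and to trypsin-like proteases, were on neither list.

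**Figure D4:**
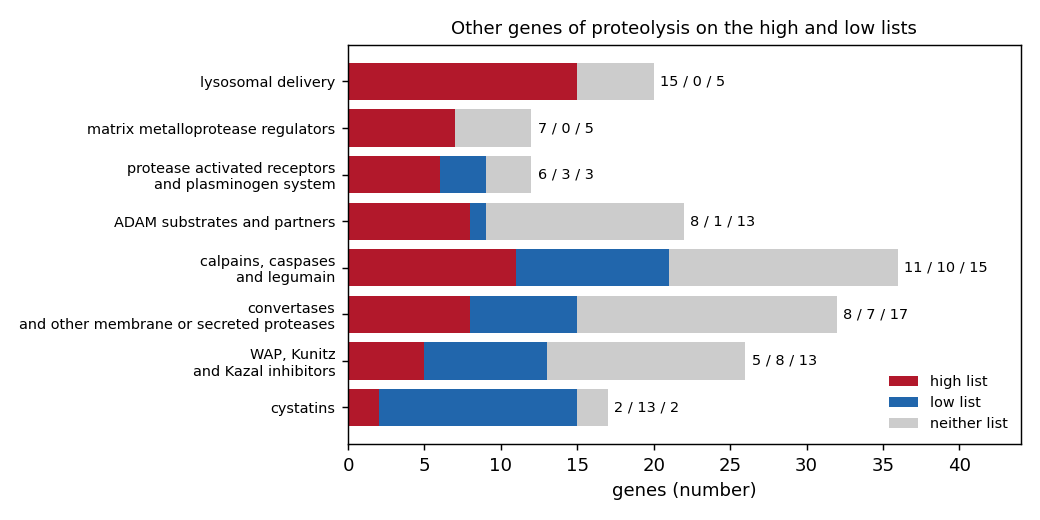
Number of genes (x axis) of 8 groups of proteolysis genes on the high list (red), the low list (blue) or neither (grey), with the 3 counts printed in that order. Lysosomal delivery genes had 15 high and 0 low, and cystatins had 2 high and 13 low.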

How the data were processed

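The authors deposited estimated counts per locus for each library in a Cuffdiff table, per the file headers, of which 3.31% of nonzero values were not whole (tolerance 1e-06). Tools listed in the submitters' processing notes, without settings, are Cuffdiff, Cufflinks 2.2.1, TopHat2 and CASAVA 1.8.2, and the build is hg19. The deposited lists give gene starts and ends on hg19, per the file headers and these notes, in bases counted from 1. The estimated counts served only for depth, with all 6 libraries used by fraction.

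Symbols were matched with pandas 2.3.3 in Python 3.11.15. The 4 symbols on both lists were left out, leaving 4527 high-list and 4415 low-list genes, of which 4484 and 4251 matched a RefSeq symbol or a single synonym. All 91 members matched. Promoters are RefSeq windows of GRCh38.p14. RefSeq served otherwise for names, gene type and order only, and its 2 readthrough or opposite strand symbols under the rule were left out. Serpins and TIMPs were counted as inhibitors, ADAMTSL and PLAUR as neither, the rest as proteases, by family name and not by known activity. Listed members are named, with hg19 positions for the high list, except 1 that is counted but not reported here. The functions were tested on simulated data. The members and lists were chosen with earlier results of these data known. No p-value was computed, since the lists carry no samples.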

Additional observations from a re-analysis of the deposited data

How the results depend on the processing

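No paired analysis was possible because the lists carry no samples and no result comes from a test; for the same reason no library could be left out of a count. The share of members on the high list was 27.5% and stayed at 27.5% to 28.4% with symbols on both lists kept, rows counted, protein coding members alone, members of no role left out, or synonyms added. The next 2 alternatives, on clusters and on the denominator for proteases and inhibitors, were chosen after seeing the data. With clusters left out the share was 43.1% for all members, 35.7% for proteases and 69.2% for inhibitors, since all clustered members were low. With all RefSeq family genes as denominator it was 11.2% for proteases and 23.7% for inhibitors, since genes on neither list then count. The background share of 50.6% became 54.1% among protein coding genes and 54.4% with LINC, defensin, olfactory receptor and keratin associated genes left out. The median number of loci detected fell to 13412 in migrated and 13488 in non-migrated libraries with a minimum of 10 fragments, against 16187 and 16417 with 1. Clusters numbered 5 at 200 kb and 7 at 1 Mb, where ADAM9, on the high list, joined ADAM18 and ADAM2. By the same denominator the share was 8.7% against 25.0% of listed genes for MMP, 15.0% against 37.5% for ADAM, 5.26% against 12.5% for ADAMTS, 17.6% against 33.3% for SERPIN and 46.7% against 77.8% for CTS, with 8.0% for PRSS. The exact 95% binomial intervals of the listed shares are wide for so few genes. They were made for listed genes, so they do not measure whether a share holds by the other denominator. Counting genes on neither list cannot raise a share. Shares of neighbours on the same list were 89.2 to 91.4% and the CpG medians moved by less than 1 SD. The alternative that leaves out ADAM members without a zinc-binding motif was not run, as protein sequences were not used here.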
